A study of Mus musculus with 3 samples.

Results

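The muscarinic acetylcholine receptor genes Chrm1, Chrm2 and Chrm3 and the adrenergic receptor genes Adra1a, Adra1b and Adrb1 were followed through differentiated mouse neurosphere cultures. They are 6 of the 30559 genes counted, taken by symbol, and were listed because Adra1a and Chrm3 had been among the lowest ratios in precursor nuclei of the CBP-ablated library. That contrast is therefore given below as a description. Control cultures and those with CBP or p300 ablated were each represented by 1 single-nucleus library, so no test between conditions exists and every interval (95%) covers counting error only, not the variation between cultures. By the methods, neural stem cells of C57BL/6 pups from the subventricular zone were infected with lentivirus. The virus carried Cre fused to mCherry on Crebbp f/f or Ep300 f/f cells, and RFP in controls, whose floxed line is not stated. About 15 cultures per condition were pooled on day 15 and their nuclei were sorted by the red reporter, whereas the labels of all 3 samples name tamoxifen. All 3 conditions were thus infected, with differing reporters, and both ablated libraries are compared with the same control.

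Muscarinic receptors respond to acetylcholine and adrenergic receptors to noradrenaline and adrenaline, and all are G protein-coupled receptors of the cell surface. M1 (Chrm1) and M3 (Chrm3) and the alpha-1 receptors (Adra1a, Adra1b) signal through Gq to phospholipase C and calcium, M2 (Chrm2) signals through Gi to lower cyclic AMP, and beta-1 (Adrb1) signals through Gs to raise it. In glia, alpha-1 receptors are known for calcium responses of astrocytes to noradrenaline, and muscarinic receptors are found on oligodendrocyte precursors and neurons. CBP, a histone acetyltransferase, was named for its binding to CREB, a transcription factor that cyclic AMP signalling activates.

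The libraries held 4884, 3017 and 4648 nuclei in the order control, CBP-ablated, p300-ablated, with 16312170, 12748336 and 18876682 unique molecular identifiers (UMIs). Between 1 and 7 barcodes were shared by any pair of libraries. Crebbp had 335, 369.5 and 365 UMIs per 1000000 of the library (CPM) and Ep300 114, 136 and 115. Sums over the exons and introns of each whole gene thus showed no loss of the floxed gene and do not check the labels. The study reports that removal of both proteins was checked, with CBP staining shown. It also describes the recombined Crebbp locus as still making a truncated protein. Clustering gave 13 clusters, of which 10 carried the markers of a class and are called by it. The astrocyte-like cluster held 1278 control nuclei and 0 of either ablated library, which allows a share of up to 0.0994% and 0.0645% there, and a cluster of 1 library cannot be told apart from that library. The cluster led by Ogn and Cep19 (unnamed 12) consisted mostly of called doublets, with 68 of 68, 27 of 35 and 78 of 81 nuclei. The cluster-5-like nuclei, marked by Kcnj6 and Nell2, numbered only 21 in the CBP-ablated library and were not compared there.

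Each gene lies on its own stretch of the genome (GRCm38, GENCODE M21). Chrm3 spans 485 kb of chromosome 13 (9875486 to 10360847, minus strand) and Chrm2 140 kb of chromosome 6 (36388084 to 36528414, plus strand). Adra1a spans 136 kb of chromosome 14 (66635251 to 66771168, plus strand) and Adra1b 127 kb of chromosome 11 (43774606 to 43901210, minus strand). Adrb1 spans 10.9 kb of chromosome 19 (56722199 to 56733113, plus strand) and Chrm1 19.8 kb of the same chromosome (8663789 to 8683587, plus strand). Reads of introns count as well as those of exons, and the antisense genes 9330158H04Rik in Chrm2 and Gm26861 in Chrm3 were counted apart, with 53 and 197 UMIs in all.

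RefSeq start windows were at hand for 4 of the 6 genes, with 5 windows because Adra1b has a pair of starts. Those of Chrm3 and Chrm2 are shown because the intervals of their ratios, CBP-ablated over control, lay below 0 in NPC/OPC-like nuclei. That of Adrb1 is shown because it held a half-site of the cyclic AMP response element. The sequences (GRCm38.p6, RefSeq) run 5′ to 3′ on the gene's strand and end before the first transcribed base of either annotation. Capitals mark matches on either strand to TGACGTCA (the full cyclic AMP response element), its half-site TGACG or the GC box GGGCGG.
Chrm3, chr13:10360848-10361053, minus strand: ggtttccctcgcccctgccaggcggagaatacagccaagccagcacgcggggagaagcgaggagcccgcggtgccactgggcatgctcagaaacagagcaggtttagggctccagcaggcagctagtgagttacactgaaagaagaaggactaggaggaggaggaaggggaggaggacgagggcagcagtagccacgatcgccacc
Chrm2, chr6:36387834-36388083, plus strand: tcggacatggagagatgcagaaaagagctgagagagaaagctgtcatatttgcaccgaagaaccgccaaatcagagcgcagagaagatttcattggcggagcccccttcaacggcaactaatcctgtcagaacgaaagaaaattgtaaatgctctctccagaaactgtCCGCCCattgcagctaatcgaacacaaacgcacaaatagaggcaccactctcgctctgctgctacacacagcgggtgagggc
Adrb1, chr19:56721867-56722116, plus strand: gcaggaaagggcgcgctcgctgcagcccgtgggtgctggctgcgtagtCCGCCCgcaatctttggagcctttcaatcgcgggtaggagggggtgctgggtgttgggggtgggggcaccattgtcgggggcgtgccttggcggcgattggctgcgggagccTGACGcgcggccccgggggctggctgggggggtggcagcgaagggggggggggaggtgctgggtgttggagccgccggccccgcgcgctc

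The full element matched none of the 5 windows, and among the 250 bases before all 32851 RefSeq starts 1.55% held it. The half-site, which the full element contains, matched the Adrb1 window 90 bases before the start, against 17.8% of all windows. The GC box matched the windows of Chrm2 and Adrb1 and the inner window of Adra1b, against 32.7% of all windows, and the TATA box TATAAA matched none of the 5 (12.4% of all). These matches describe letters in a short window and say nothing of binding.

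Over whole libraries Adra1a was the most counted member. It had 95.2 CPM in control (90.5 to 100.1), 32.5 with CBP ablated (29.4 to 35.8) and 63.4 with p300 ablated (59.8 to 67.1). Chrm3 followed with 36.9, 17.8 and 37.2 CPM and Adrb1 with 17.4, 9.33 and 17.3. Chrm2 had 10.7, 4.86 and 23.1 CPM and was thus highest in the p300-ablated library, while Adra1b had 8.21, 17.5 and 10.2 and was highest in the CBP-ablated library. Chrm1 was near the floor, with 10, 4 and 4 UMIs. Per kilobase of gene, the order changed: in control Adrb1 had 1.60 CPM per kb and Adra1a 0.70, against 0.076 for Chrm2, 0.076 for Chrm3, 0.065 for Adra1b and 0.031 for Chrm1. By the methods these were 3′ libraries, and whether counts grow with gene span was not tested. Neither order therefore ranks the expression of the genes.

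The 8 other receptors of both families were sparse. Adra2a had the most, with 21, 17 and 30 UMIs, followed by Adrb3 with 15, 11 and 18. Chrm5 and Adra2b had 0 UMIs in all 3 libraries, which allows up to 0.184, 0.235 and 0.159 CPM. None of the 8 reached the 100 UMIs per comparison below which no ratio was ranked, and 5 of the 6 members did.

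**Figure D1:**
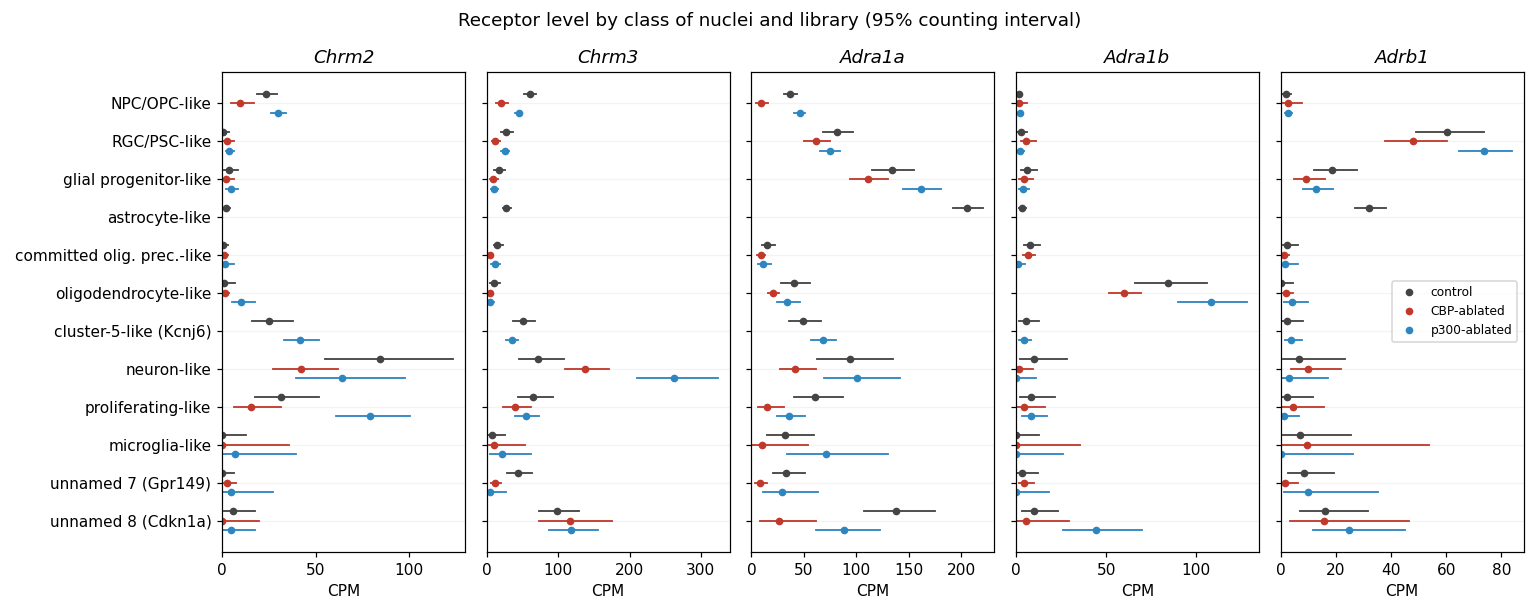
Level (CPM, linear axis) of 5 receptor genes in each class of nuclei, for the control (grey), CBP-ablated (red) and p300-ablated (blue) library; lines are 95% counting intervals and classes under 50 nuclei are left out. Adra1b stood out in oligodendrocyte-like nuclei (84.1, 59.9 and 108 CPM) and Adrb1 in RGC/PSC-like nuclei (60.4, 48.1 and 73.8).

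Adra1a, the alpha-1A receptor, was highest in astrocyte-like nuclei, at 206 CPM (192 to 221) in the control library. Its next levels in control were 138 in the cluster led by Cdkn1a and Mdm2 (unnamed 8; 108 to 175) and 134 in the Gfap-positive glial progenitor-like nuclei (115 to 155), which overlapped each other but not the astrocyte-like level. RGC/PSC-like nuclei (the study's name, for radial glial or pluripotent stem cells) had 81.9 (68.6 to 97.1) and neuron-like nuclei 94.1 (63.0 to 135). The lowest level was 14.9 (9.67 to 22.0) in committed oligodendrocyte precursor-like nuclei. In the ablated libraries, which had no astrocyte-like nuclei, glial progenitor-like nuclei had the highest level of all named classes, at 111 CPM (94.4 to 130.2) with CBP ablated and 162 (144 to 180.4) with p300 ablated.

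Adrb1, the beta-1 receptor, was highest in RGC/PSC-like nuclei in all 3 libraries. There it had 98, 75 and 237 UMIs, or 60.4 (49.0 to 73.6), 48.1 (37.9 to 60.3) and 73.8 CPM (64.7 to 83.9). In control, astrocyte-like nuclei followed at 32.1 CPM (26.8 to 38.3) and glial progenitor-like nuclei at 18.6 (12.1 to 27.5). In the ablated libraries glial progenitor-like nuclei had 9.33 and 12.7 CPM and the Cdkn1a-led cluster 15.9 and 24.6, from 3 and 10 UMIs, with overlapping intervals. Adrb1 was scarce in NPC/OPC-like nuclei, with 1.76, 2.62 and 2.61 CPM, and in oligodendrocyte-like nuclei, with 0, 6 and 5 UMIs. Adra1a and Adrb1 were thus both found in radial glia-like and astroglial nuclei, but with opposite order between RGC/PSC-like and astrocyte-like nuclei.

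Adra1b, the alpha-1B receptor, had its highest level in oligodendrocyte-like nuclei, at 84.1 CPM in control (65.7 to 106), 59.9 with CBP ablated (51.4 to 69.4) and 108 with p300 ablated (90.0 to 128). In committed oligodendrocyte precursor-like nuclei, the stage before, it had 7.77, 6.70 and 0.857 CPM, and in NPC/OPC-like nuclei 1.47, 1.75 and 2.18. No microglia-like nucleus held an Adra1b UMI in any library. Of all Adra1b UMIs, oligodendrocyte-like nuclei held 53.0% in control, 79.4% with CBP ablated and 66.7% with p300 ablated. In the cluster led by Cdkn1a and Mdm2 the p300-ablated library had 44.3 CPM (26.2 to 70.0) from 18 UMIs, against 10.0 (3.25 to 23.4) from 5 in control.

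Chrm2, the M2 receptor, was highest in neuron-like nuclei of the control library, at 84.3 CPM (55.1 to 124). It followed there in proliferating-like nuclei at 31.5 (17.6 to 51.9), in cluster-5-like nuclei at 25.2 (16.0 to 37.8) and in NPC/OPC-like nuclei at 23.5 (18.7 to 29.3), which all overlapped. In RGC/PSC-like, glial progenitor-like, astrocyte-like and both oligodendrocyte classes of control it stayed between 0.597 and 3.73 CPM. The p300-ablated library had the same order of neuron-like (64.1), cluster-5-like (41.5) and NPC/OPC-like nuclei (29.9), with proliferating-like nuclei higher, at 78.8 (60.9 to 100.2).

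Chrm3, the M3 receptor, was spread more widely. In control it was highest in the Cdkn1a-led cluster at 98.2 CPM (72.7 to 129.9), then in neuron-like nuclei at 71.4 (44.7 to 108), proliferating-like nuclei at 65.1 (44.2 to 92.4) and NPC/OPC-like nuclei at 60.3 (52.3 to 69.1). Neighbours in this order overlapped, but the NPC/OPC-like level lay below that of the Cdkn1a-led cluster with intervals apart. RGC/PSC-like (27.1) and astrocyte-like nuclei (27.5) were lower, and oligodendrocyte-like nuclei had 9.48 (4.09 to 18.7). Single nuclei weighed on the neuron-like level: in the p300-ablated library 1 nucleus held 48 of 86 UMIs, and without it the level was 116 CPM in place of 262. Without the nucleus of most UMIs in each library the neuron-like levels were 48.7, 112 and 116 CPM.

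Chrm1, the M1 receptor, had 18 UMIs over the 3 libraries, of which 7 were in NPC/OPC-like nuclei of control, 1 in those with CBP ablated and 0 in those with p300 ablated. No nucleus held more than 1. Against the 7 of control, the 0 UMIs of the p300-ablated precursors gave an interval of the log2 ratio that ended at −1.55, and in the other classes and over whole libraries every Chrm1 interval held 0.

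**Figure D2:**
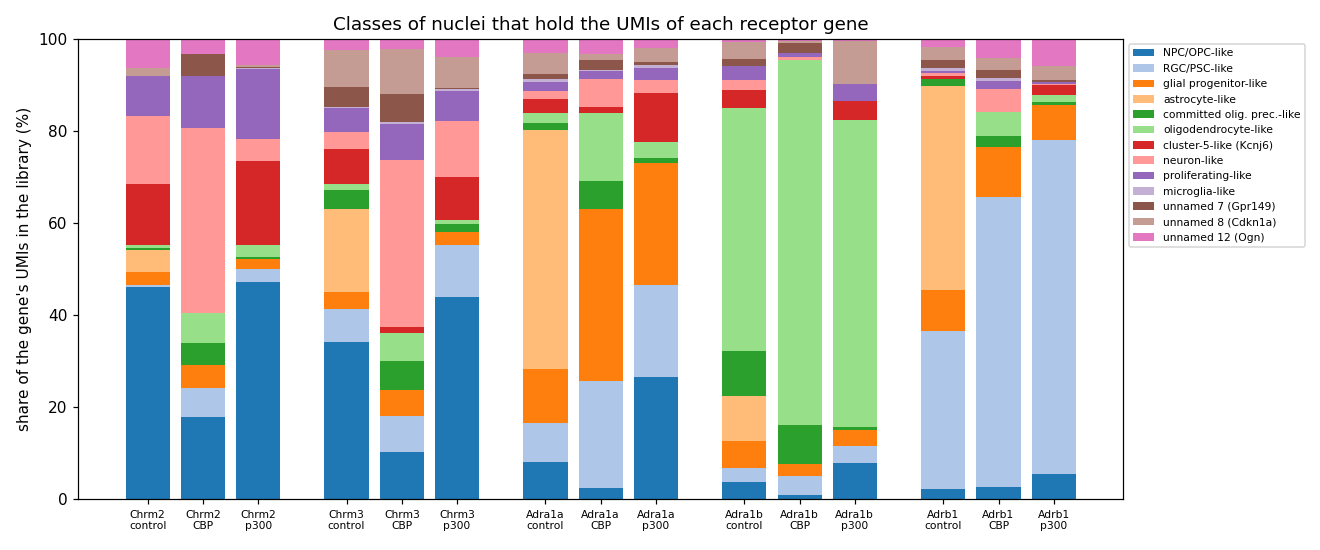
Share (%) of each gene's UMIs that each class of nuclei held, one stacked bar per gene and library, with bars reaching 100%. Oligodendrocyte-like nuclei held most Adra1b UMIs in every library, and astrocyte-like nuclei held 52.0% of Adra1a and 44.4% of Adrb1 UMIs in control.

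Whole libraries combine the level within classes and the number of nuclei in each. Against control, 3 of the 5 ranked members were past a fold of 2 in the lower direction in the CBP-ablated library, where 3.99% of all ranked genes were. These were Adra1a, with a log2 ratio of −1.55 (−1.71 to −1.39), Chrm2 with −1.13 (−1.58 to −0.71), ranked through its control count, and Chrm3 with −1.05 (−1.28 to −0.83). Adra1b was past it in the higher direction, with 1.09 (0.77 to 1.41), as were 2.89% of all ranked genes. Adrb1 was short of it, at −0.90 (−1.22 to −0.59). The whole-library sums hold the precursor counts that chose Adra1a and Chrm3, so nothing is read from the 3 of 5 members.

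In the p300-ablated library Chrm2 alone was past the fold, in the higher direction, with 1.11 (0.86 to 1.38). The share of all ranked genes past the fold was 0.694% higher and 2.12% lower. Adra1a had −0.59 (−0.70 to −0.48), while the intervals of Adra1b, at 0.31 (−0.018 to 0.64), Chrm3, at 0.011 (−0.15 to 0.17), and Adrb1, at −0.0073 (−0.24 to 0.23), held 0. Set directly against each other, the CBP-ablated library had less Chrm2 than the p300-ablated one, at −2.25 (−2.66 to −1.86), rank 14 from the lowest of 11956 genes, and less Chrm3, at −1.06 (−1.28 to −0.84). These were 2 of 5 ranked members past the fold, against 2.57% of all ranked genes in that direction. Chrm2 was ranked through its p300-ablated count, with 436 UMIs against 62, and CBP-ablated precursor counts had chosen Chrm3. Nothing is therefore read from this number of members.

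The mix of classes moved with several of these ratios. Outside the astrocyte-like cluster the log2 ratio of Adra1a became −0.89 (−1.07 to −0.72) after CBP ablation and 0.074 (−0.059 to 0.21) after p300 ablation. That of Adrb1 became −0.45 (−0.81 to −0.098) and 0.44 (0.16 to 0.73). Weighting the classes as in control left out astrocyte-like nuclei. For the CBP-ablated library it also left out cluster-5-like nuclei and unnamed 12, with 21 and 35 nuclei there. So weighted, Adra1b in the CBP-ablated library turned from 1.09 to −0.34, and Chrm2 in the p300-ablated library went from 1.11 to 0.56. Oligodendrocyte-like nuclei made up 3.28% of control nuclei, 16.1% with CBP ablated and 4.15% with p300 ablated. Within them the Adra1b ratio was −0.49 (−0.90 to −0.072) after CBP ablation and 0.36 (−0.071 to 0.80) after p300 ablation. NPC/OPC-like nuclei, which carried Chrm2, made up 20.9%, 10.6% and 38.1%. Chrm2 in the CBP-ablated library had −1.46 (−1.91 to −1.03) outside the astrocyte-like cluster and −1.04 with the classes weighted as in control. The part of the class shares in these ratios was not tested.

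**Figure D3:**
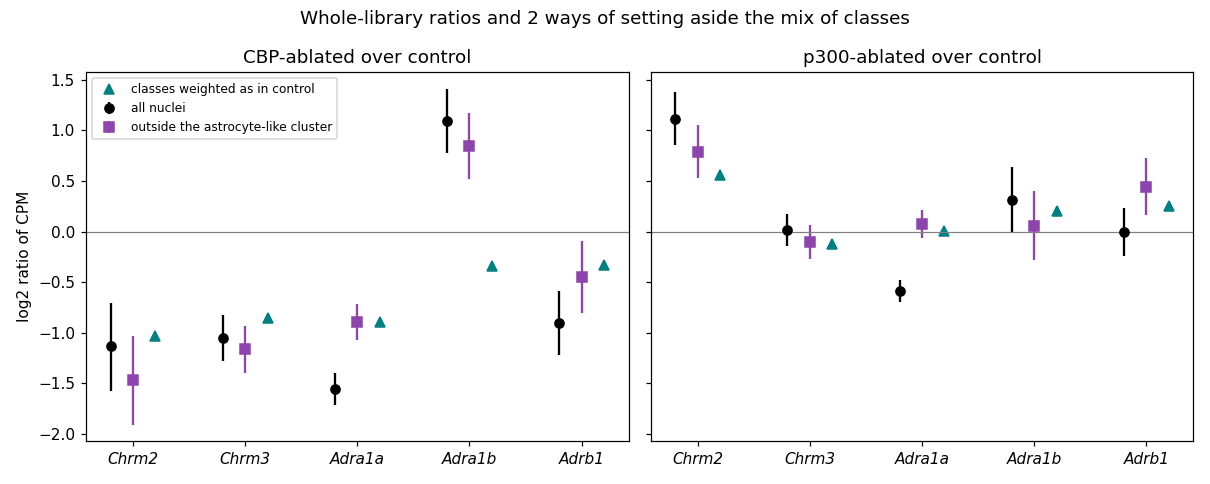
Log2 ratio of CPM over control in the CBP-ablated (left) and p300-ablated library (right), for all nuclei (black circles), nuclei outside the astrocyte-like cluster (purple squares) and classes weighted as in control (green triangles); lines are 95% counting intervals, which the weighted ratio lacks. For Adra1b in the CBP-ablated library the weighted ratio lay below 0 (−0.34) while the other values lay above it.

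NPC/OPC-like nuclei take their name from the study, where such a cluster appeared to mix neuronal progenitors and oligodendrocyte precursors. All 8 markers of the class passed here, Pdgfra and Cspg4 among them, but none was used to tell neuronal progenitors from oligodendrocyte precursors. These nuclei were the class for which Adra1a and Chrm3 had been listed. Adra1a had 125 UMIs there in control, 10 with CBP ablated and 317 with p300 ablated, or 36.8 (30.6 to 43.8), 8.73 (4.19 to 16.1) and 46.0 CPM (41.1 to 51.3). The control and p300-ablated levels lay close together and the CBP-ablated level lay below both, with intervals apart. The log2 ratio over control was −2.07 (−3.17 to −1.15), or 4.21-fold lower, with CBP ablated and 0.32 (0.019 to 0.63) with p300 ablated.

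Chrm3 had 205, 23 and 308 UMIs in the same nuclei, or 60.3 (52.3 to 69.1), 20.1 (12.7 to 30.1) and 44.7 CPM (39.8 to 49.9). Here all 3 intervals were apart, with control highest. The log2 ratio was −1.59 (−2.28 to −0.96), or 3.00-fold lower, with CBP ablated and −0.43 (−0.69 to −0.17) with p300 ablated.

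Both ranked members were past the fold in the lower direction in the CBP-ablated library, as were 1.01% of all genes ranked in this class (0.312% were past it in the higher direction). The list was chosen on this contrast and both genes reached 100 UMIs through control, so nothing is read from that count. By the values that chose them, Adra1a was the 4th lowest of 5457 genes, between Ndst3 (−2.09) and Aldh1a1 (−1.74), and Chrm3 the 8th, between Dab2 (−1.64) and Mcc (−1.50). In the p300-ablated library 0 of 3 ranked members were past the fold, against 0.28% of genes lower and 0.318% higher. Of the members the listing did not turn on, Chrm2 had 80, 11 and 206 UMIs, or 23.5, 9.60 (4.79 to 17.2) and 29.9 CPM. Its log2 ratio was −1.29 (−2.35 to −0.38) with CBP ablated and 0.34 (−0.035 to 0.74) with p300 ablated. Adra1b and Adrb1 had at most 18 UMIs per library in this class, and their intervals held 0 in both comparisons.

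Directly against the p300-ablated library, Adra1a had a log2 ratio of −2.40 (−3.47 to −1.50) in CBP-ablated NPC/OPC-like nuclei, Chrm2 −1.64 (−2.66 to −0.77) and Chrm3 −1.15 (−1.83 to −0.54). These genes reached 100 UMIs through the p300-ablated library, with 317, 206 and 308 UMIs there against 10, 11 and 23, and the comparison shares the CBP-ablated counts that chose Adra1a and Chrm3. Nothing is therefore read from their being past the fold beside the 1.69% of all ranked genes that were.

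Microglia-like nuclei were taken as a background for these low counts, although it was not shown that they lack the receptors. After thinning each nucleus to 1500 UMIs, 4.94% of control NPC/OPC-like nuclei (3.69 to 6.46) held an Adra1a UMI, with a median depth before thinning of 3270. In control microglia-like nuclei the share was 3.12% (0.381 to 10.8). Their median was 1134 UMIs, and nuclei below 1500 were left out, so most of them did not enter this share. Its wide interval held the NPC/OPC-like share, so on this measure the 2 classes cannot be told apart. The summed level gave the same picture, 31.6 CPM (14.4 to 59.95) in control microglia-like nuclei from 9 UMIs, although committed oligodendrocyte precursor-like nuclei of the same library lay lower than NPC/OPC-like nuclei with intervals apart. The unthinned shares of nuclei with a UMI were 9.21% in NPC/OPC-like and 3.28% in microglia-like nuclei. In the p300-ablated library the microglia-like level of Adra1a was 71.0 CPM, but 1 nucleus held 9 of its 10 UMIs. In the CBP-ablated library it was 9.65 CPM (0.244 to 53.7) from 1 UMI, so the precursor level of 8.73 there did not lie above that of microglia-like nuclei. For Chrm3 the thinned share was 6.13% (4.73 to 7.79) in control NPC/OPC-like nuclei against 1.56% (0.0396 to 8.40) in microglia-like nuclei. These intervals overlapped, so the thinned shares of Chrm3 cannot be told apart either. The summed control levels, 60.3 against 7.02 CPM (0.850 to 25.4), were apart. In the CBP-ablated library microglia-like nuclei held 1 Chrm3 UMI, or 9.65 CPM (0.244 to 53.7). That interval held the Chrm3 level of the CBP-ablated precursors.

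Markers of other cell types also differed between the NPC/OPC-like nuclei of the libraries. The 8 astrocyte markers summed to 4208 CPM in control, 3023 with CBP ablated and 4148 with p300 ablated, the 5 oligodendrocyte markers to 75.6, 317 and 95.1, and the 7 neuron markers to 1302, 820.5 and 1071, with none of these markers at 0. The 8 NPC/OPC markers summed to 34647, 33336 and 36964 CPM. The part of these differences in the receptor ratios was not tested. At a finer resolution the class fell mostly into 3 sub-clusters, of which 1 held 224 of the 320 CBP-ablated but 306 of the 1021 control nuclei. Within it Adra1a had 26.9, 3.91 and 45.8 CPM and Chrm3 44.8, 10.4 and 28.8, from 3 and 8 UMIs in the CBP-ablated library. The CBP-ablated interval of Chrm3 (4.50 to 20.6) overlapped that of the p300-ablated library (18.0 to 43.5). These nuclei are part of those that chose both genes, so their low CBP-ablated levels are a description. In the second sub-cluster, with 63 CBP-ablated nuclei, Adra1a had 35.7, 12.1 and 40.3 CPM and Chrm3 62.9, 36.2 and 40.5, and the CBP-ablated intervals overlapped those of both other libraries.

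**Figure D4:**
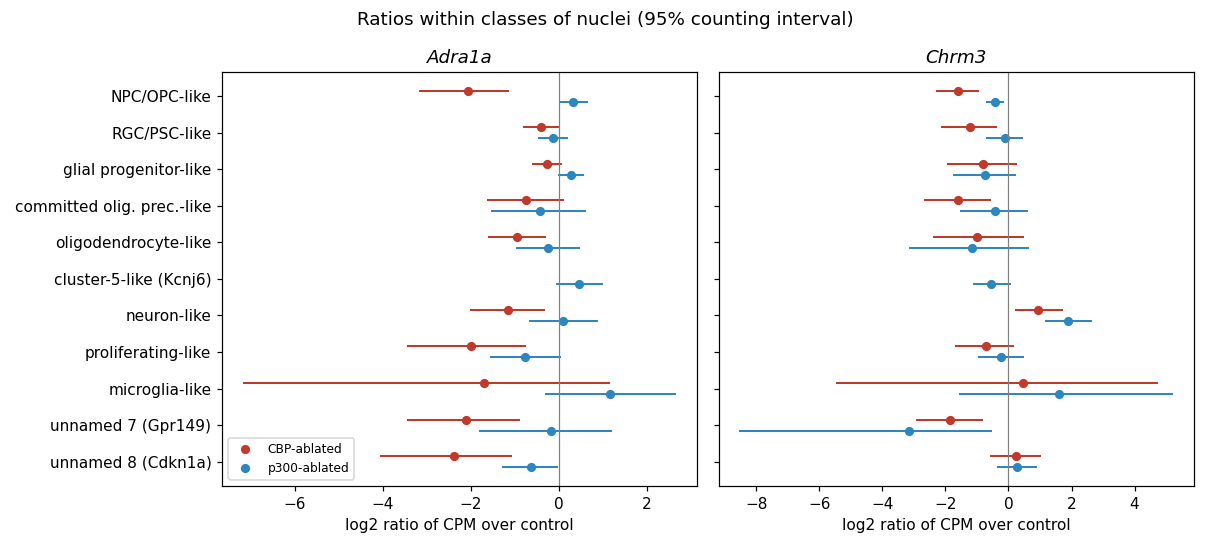
Log2 ratio of CPM over control for Adra1a (left) and Chrm3 (right) in each class of nuclei, CBP-ablated (red) and p300-ablated (blue); lines are 95% counting intervals. All 10 CBP-ablated points of Adra1a lie below 0, and Chrm3 points lie on both sides, with neuron-like nuclei at 0.95 and 1.88; the cluster of called doublets is not shown.

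Over the classes of nuclei, the precursors included, the point ratio of Adra1a in the CBP-ablated library was below 0 in all 10 compared, and its interval in 7. The values went from −0.27 (−0.59 to 0.048) in glial progenitor-like nuclei to −2.39 (−4.05 to −1.10) in the Cdkn1a-led cluster, there from 5 UMIs against 69. RGC/PSC-like nuclei had −0.41 (−0.81 to −0.022). Proliferating-like nuclei had −1.99 (−3.43 to −0.77), from 7 UMIs against 29. Only NPC/OPC-like, RGC/PSC-like and glial progenitor-like nuclei reached 100 Adra1a UMIs in this comparison. How often other genes had such counts of classes was not computed, so nothing is read from the number of classes. The intervals of glial progenitor-like and NPC/OPC-like nuclei did not overlap, but the difference between classes was not tested. In the p300-ablated library the interval was below 0 in 2 of 12 classes and above 0 in 2.

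Chrm3 did not keep 1 direction. In the CBP-ablated library its interval was below 0 in 4 of 10 classes: NPC/OPC-like, RGC/PSC-like at −1.23 (−2.11 to −0.41), committed oligodendrocyte precursor-like at −1.60 (−2.65 to −0.60) and the Gpr149-led cluster (unnamed 7) at −1.84 (−2.90 to −0.85). In neuron-like nuclei it lay above 0, at 0.95 (0.25 to 1.70), with 22, 82 and 86 UMIs in the 3 libraries. The p300-ablated ratio there was 1.88 (1.19 to 2.63), past the fold as were 1% of ranked genes of that class, and rests in part on the single nucleus described above.

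Chrm2 had an interval below 0 in 2 of 9 classes of the CBP-ablated library, NPC/OPC-like and neuron-like, the latter at −1.01 (−1.86 to −0.16). In the p300-ablated library it lay above 0 in 3 of 12 classes. These were proliferating-like nuclei at 1.32 (0.50 to 2.24), cluster-5-like nuclei at 0.72 (0.034 to 1.46) and oligodendrocyte-like nuclei, where 12 UMIs stood against 1 and 1 nucleus held 7 of them. For Adrb1 the interval over control held 0 in all 10 classes of the CBP-ablated and all 12 of the p300-ablated library. Its home class was included, with −0.33 (−0.78 to 0.12) and 0.29 (−0.055 to 0.65) in RGC/PSC-like nuclei. Only these nuclei reached 100 Adrb1 UMIs in either comparison. The other classes held fewer, so their wide intervals are not read as a lack of difference. Directly against the p300-ablated library, Adrb1 in CBP-ablated RGC/PSC-like nuclei had −0.62 (−1.01 to −0.24), from 75 UMIs against 237. In the same comparison Adra1b in oligodendrocyte-like nuclei had −0.85 (−1.19 to −0.51).

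Most genes that supply the ligands were sparse. Of 5 genes for acetylcholine, only Bche, which encodes butyrylcholinesterase, reached 100 UMIs, with 8.15, 11.5 and 5.35 CPM and log2 ratios of 0.49 (0.14 to 0.84) and −0.61 (−0.996 to −0.22). Of 9 genes for noradrenaline, 3 reached it in the CBP-ablated comparison and 4 in the p300-ablated one. Ddc, the aromatic amino acid decarboxylase, was past the fold in the CBP-ablated library, with 5.82, 20.9 and 3.39 CPM and a log2 ratio of 1.84 (1.498 to 2.19). It was the 1 of 3 ranked genes that was higher, beside 2.89% of all ranked genes, and was ranked through its CBP-ablated count. Ddc was among the leading genes of the committed oligodendrocyte precursor-like cluster, which held 8.09%, 20.2% and 5.08% of nuclei. The part of these shares in its ratio was not tested.

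Downstream of Gq, 12 of 15 genes were ranked over whole libraries. None was past the fold in the CBP-ablated library, where 3.99% of all ranked genes were lower and 2.89% higher. Prkcd, a protein kinase C, was the 1 past it in the p300-ablated library (2.12% of all genes lower), at −1.22 (−1.72 to −0.74). The list medians were 0.041 and 0.24, beside 0.058 and −0.035 for all genes. Of 15 ranked genes of Gs and Gi signalling, the adenylyl cyclases Adcy2, at −1.15 (−1.30 to −1.01), and Adcy8, at −1.50 (−1.65 to −1.36), were lower past the fold in the CBP-ablated library (3.99% of all genes) and none was in the p300-ablated one (2.12%). The list medians were −0.14 and 0.17, beside the same 0.058 and −0.035. In NPC/OPC-like nuclei Adcy8 was lower after CBP ablation, with a log2 ratio of −1.46 (−2.17 to −0.82), 1 of 12 ranked genes of this list beside 1.01% of all ranked genes. It had 180 UMIs in control, 22 with CBP ablated and 305 with p300 ablated, and was thus ranked through control. Gnaz was higher there with p300 ablated, at 1.07 (0.34 to 1.88), 1 of 14 ranked genes beside 0.318%. Most of the Gnaz UMIs of this comparison lay in the p300-ablated library, so nothing is read from this number of genes.

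Among 10 ranked genes that desensitise such receptors, the receptor kinase Grk3 was the 1 gene past the fold, lower in both libraries (3.99% and 2.12% of all genes), with 57.0 CPM in control, 12.2 with CBP ablated and 26.4 with p300 ablated. Its log2 ratios were −2.23 (−2.48 to −1.98) and −1.11 (−1.27 to −0.95), and the list medians 0.11 and 0.17. Of 13 nicotinic receptor genes, which encode the ion channels that acetylcholine opens, only Chrna7 was ranked, at −0.35 and 0.16. The whole-library values of all these genes carry the mix of classes as well.

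Within 3 further classes a few genes of these lists were past the fold. In RGC/PSC-like nuclei of the CBP-ablated library the protein kinase C gene Prkcb, 1 of 9 ranked Gq genes, was lower at −1.30 (−1.81 to −0.81), and Rgs7, a regulator of G protein signalling, 1 of 3 ranked desensitisation genes, at −1.12 (−1.23 to −1.01), beside 0.904% of all ranked genes. In glial progenitor-like nuclei of that library Grk3 was lower at −1.17 (−1.56 to −0.79) and Rgs7 at −1.16 (−1.31 to −1.01), 2 of 4 ranked desensitisation genes, and Adcy2, 1 of 7 ranked Gs and Gi genes, at −1.55 (−1.97 to −1.15), beside 1.01%. In oligodendrocyte-like nuclei Itpr1, an intracellular calcium channel, was higher with CBP ablated, at 1.41 (0.51 to 2.45), as 1 of 8 ranked Gq genes beside 1.49% of all genes. With p300 ablated, the phospholipase C gene Plcb4 was higher there at 1.01 (0.53 to 1.51), 1 of 7 ranked, and the arrestin Arrb1 at 1.35 (0.66 to 2.11), 1 of 4, beside 1.59%. For each gene named in these 3 classes, most UMIs lay in the library where its level was higher, so nothing is read from these numbers of genes.

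In the direct comparison of the ablated libraries, Ddc was higher with CBP ablated, at 2.62 (2.22 to 3.04), and Bche at 1.10 (0.72 to 1.48), where 3% of all genes were. Adcy1, at −1.27 (−1.51 to −1.03), and Grk3, at −1.12 (−1.39 to −0.85), were lower over whole libraries (2.57%). In NPC/OPC-like nuclei Adcy1 was lower at −1.06 (−1.999 to −0.24) and Adcy8 at −1.20 (−1.90 to −0.58), 2 of 13 ranked Gs and Gi genes beside 1.69%. Adcy8 was ranked there through its p300-ablated count, so nothing is read from this number of genes. Prkcb was lower in RGC/PSC-like nuclei at −1.22 (−1.70 to −0.77; 0.799% of all genes), Grk3 in glial progenitor-like nuclei at −1.06 (−1.44 to −0.70; 1.21%) and Arrb1 in oligodendrocyte-like nuclei at −1.30 (−1.77 to −0.83; 2.11%).

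Over 35 sums of nuclei by class and library, the genes whose log2 levels ran most alike were Fstl1 (r = 0.90) and Pdpn (0.89) for Adrb1, and the long noncoding RNA A330015K06Rik (0.84) and Tmem98 (0.83) for Adra1b. They were Rtl4 (0.82) and Pxylp1 (0.82) for Chrm2, and Tox2 (0.82) and Adcy8 (0.81) for Adra1a. Chrm3 had Scn3b (0.81), a sodium channel subunit, and Chrna7 (0.75) was the 4th of its 5 closest genes. The sums share their libraries and depths and are not independent, so the correlations are descriptions.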

How the data were processed

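Single nuclei of 3 libraries were analysed from deposited counts. Per the methods, the authors used FastQC 0.11.9, aligned reads to GRCm38 with Cell Ranger 3.1, counting exons and introns, and used Seurat 2.3.4 for their own clusters; the deposited values are whole UMI counts per gene and nucleus, without normalization. All nuclei were kept, including called doublets (191, 73 and 173 by Scrublet in scanpy 1.11.5, at 0.8% per 1000 nuclei).

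Clusters were made anew with Seurat 5.3.0 in R 4.3.3 (1617 variable genes, 20 components, 30 neighbours, resolution 0.6, seed 1) and named where at least 60% of a marker list, and at least 3 markers, had a UMI in 10% of nuclei and 2 times the CPM of all other nuclei, so names may differ from the study's. Most markers of NPC/OPC, RGC/PSC and glial progenitors came from the study's marker table on these libraries. UMIs were summed per class and library and divided by the class total (CPM), with exact Poisson intervals for levels, exact binomial intervals for shares and conditional binomial intervals for ratios (scipy 1.17.1, numpy 2.4.6, pandas 2.3.3, Python 3.11.15, matplotlib 3.10.9). Ratios were ranked for genes whose UMIs in both libraries summed to 100 or more; past the fold means a log2 ratio beyond 1 or −1. A count of 0 was given a limit of 3 UMIs. Nuclei with UMIs below 1500 were left out of thinned shares. Classes under 50 nuclei in a library were not compared.

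The 6 genes and the pathway lists were chosen with earlier results of these data known. From the lists, genes were named when ranked and past the fold over whole libraries or in NPC/OPC-like, RGC/PSC-like, glial progenitor-like or oligodendrocyte-like nuclei, and Chrna7, the only ranked gene of its list, was named after its values were seen. Likeness was the Pearson correlation of log2(CPM + 1), for genes with at least 200 UMIs, of which the 5 closest were kept. Interval and ratio scripts were tested on simulated data. Start windows for Adra1a and Chrm1 and protein sequences were not used here.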

Additional observations from a re-analysis of the deposited data

Results flagged for a closer look

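Intervals for 1 gene lay on opposite sides of 0 in different classes of nuclei of 1 comparison; with 1 library per condition the differences between classes were not tested. For Chrm3 in the CBP-ablated library the log2 ratio over control was −1.59 in NPC/OPC-like, −1.23 in RGC/PSC-like and −1.60 in committed oligodendrocyte precursor-like nuclei and −1.84 in the Gpr149-led cluster, but 0.95 in neuron-like nuclei. For Chrm3 in the p300-ablated library it was −0.43 in NPC/OPC-like nuclei and −3.14 (from 1 UMI against 26; −8.50 to −0.54) in the Gpr149-led cluster, but 1.88 in neuron-like nuclei, where the nucleus with the most UMIs held 48 of 86.

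For Adra1a in the p300-ablated library it was 0.32 in NPC/OPC-like and 0.27 in glial progenitor-like nuclei, whose intervals reached down to 0.019 and 5.5e-04, but −0.64 in the Cdkn1a-led cluster and −1.52 in the Ogn-led cluster of called doublets. For Adra1b in the p300-ablated library it was −3.18 in committed oligodendrocyte precursor-like nuclei (1 UMI against 13; −8.59 to −0.45) and 2.14 in the Cdkn1a-led cluster (18 UMIs against 5).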

How the results depend on the processing

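The NPC/OPC-like ratios of Adra1a and Chrm3 kept their direction under all 16 alternatives of clustering, depth, doublets and free RNA: Adra1a went from −2.31 to −1.39 in the CBP-ablated and from 0.25 to 0.54 in the p300-ablated library, and Chrm3 from −1.91 to −1.11 and from −0.53 to −0.26. The alternatives reuse the CBP-ablated counts that chose both genes, so the kept direction there is a description. Free RNA was subtracted at 5% and 10% only, and the level of microglia-like nuclei was not subtracted. Leaving out the nucleus with the most UMIs and combining 3 related clusters were chosen after seeing the data. Over whole libraries, leaving out the astrocyte-like cluster and weighting classes as in control turned Adra1a in the p300-ablated library to 0.074 and 0.0084, and weighting turned Adra1b in the CBP-ablated library to −0.34. The same 2 alternatives moved Chrm2 (p300-ablated) to 0.79 and 0.56, Adra1a (CBP-ablated) to −0.89 and −0.89, and Adrb1 to −0.45 and −0.33 in the CBP-ablated and 0.44 and 0.25 in the p300-ablated library. Thinning moved Chrm3 (CBP-ablated) to −0.73; the cause was not tested. With 1 UMI in each library as the only filter, the percentages of genes past the fold were 7.91% lower and 7.97% higher in the CBP-ablated and 7.70% and 4.96% in the p300-ablated library. In NPC/OPC-like nuclei they became 5.87% and 10.3%, and 11.1% and 4.23%. With 20 UMIs in each library the NPC/OPC-like values were 0.582% lower and 1.26% higher in the CBP-ablated and 0.733% lower in the p300-ablated library, and this filter leaves out Adra1a, which had 10 UMIs in the CBP-ablated nuclei. Of all values recomputed, 156 counted as the same, 20 as moved and 3 as reversed. For ratios and levels the same meant within the interval of the main value, while the percentages of genes have no interval. No paired analysis was possible because each condition has 1 library. Counts of 10 to 23 UMIs behind the CBP-ablated precursor levels limit their precision.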
